A study of Homo sapiens with 8 samples.

Results

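The circadian clock genes of LNCaP cells were examined over 24 h of exposure to recombinant asporin (ASPN, a secreted matrix protein). Rows of the count table were taken by gene symbol, and the symbols were CLOCK, ARNTL (now also called BMAL1), PER1, PER2, PER3, CRY1, CRY2, NR1D1, NR1D2 and DBP. All 10 of 10 were found among 36474 genes in the table, and all 10 passed the low-count filter that kept 21071 genes. LNCaP is an established line from a human prostate carcinoma metastasis. Cells were starved without serum or calcium, then given ASPN at 100 ng/mL, and RNA was taken at 0 h (2 libraries), 12 h (3 libraries) and 24 h (3 libraries). All groups carry the label of ASPN treatment. The methods of the study describe starvation before treatment and do not name the medium during exposure. Libraries from cells kept for as long without ASPN were not analysed here. Effects of ASPN and of hours in culture cannot be told apart in any comparison.

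The clock is a transcriptional feedback loop present in most cells. CLOCK and ARNTL proteins form a dimer that binds E-box sequences and switches on the PER, CRY, NR1D and DBP genes. PER and CRY proteins accumulate, enter the nucleus and inhibit that dimer. NR1D1 and NR1D2 (REV-ERB alpha and REV-ERB beta) are nuclear receptors that repress ARNTL, and DBP is an output factor that activates genes through D-box sequences. Each cell runs its own oscillator, so RNA from a dish of cells averages over whatever phases the cells are in. Only 3 times were sampled, 12 h apart, and no period, phase or amplitude can be read from them.

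Library totals ran from 73406825 to 96962135 counts, and mitochondrial genes took 6.20% to 7.32% of them. The prostate luminal markers KLK3, KLK2, TMPRSS2, FOLH1 and HOXB13 had at least 42.3 CPM in every library (counts per 1000000, TMM-normalized). Of 10 basal, fibroblast and leukocyte markers, KRT5 and COL1A2 were not listed, COL1A1 lay between 18.9 and 21.3 CPM, LUM between 0.945 and 1.83 CPM, and the other 6 stayed at or below 0.218 CPM. Clock genes were well counted. Their lowest count in a library was 616 and their highest 10477, for which counting alone gives a coefficient of variation of 4.03% and 0.977%.

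Expression fell for 3 of the 10 clock genes, and none passed the test as higher in any comparison, though CRY1 between 12 h and 24 h lay at the threshold. NR1D2 and PER2 were lower at 12 h than at 0 h and lower again at 24 h, and PER1 was lower at 24 h than at both earlier times. In RNA from whole dishes, fewer cells of a kind and less RNA per cell cannot be told apart. A gene was said to pass at a false discovery rate (FDR, the p-value of the edgeR quasi-likelihood test after Benjamini-Hochberg correction over all genes) of 0.05 or less. Between 12 h and 0 h, 2 of the 10 passed, both lower, where 11.6% of all genes tested passed (4.85% higher and 6.75% lower). Between 24 h and 0 h, 3 of the 10 passed, all lower, where 16.3% of all genes tested passed (7.82% higher and 8.49% lower). Between 24 h and 12 h, 3 of the 10 passed, all lower, against 2.72% of all genes tested (1.12% higher and 1.61% lower). The median log2 changes of the 10 were -0.06, -0.12 and -0.13 in these 3 comparisons, and those of all genes tested were -0.001, -0.003 and 0.003. Both comparisons with 0 h use the same 2 libraries, so their values are given side by side and not as independent evidence. Well-counted genes passed more often than others. Of 13464 genes that averaged 100 or more normalized counts, 17.5%, 24% and 4.16% passed in the same 3 comparisons. All 10 clock genes are among them. Their 2 of 10 at 12 h and 3 of 10 at 24 h lay near these shares. The 3 of 10 between 24 h and 12 h lay above 4.16%.

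**Figure D1:**
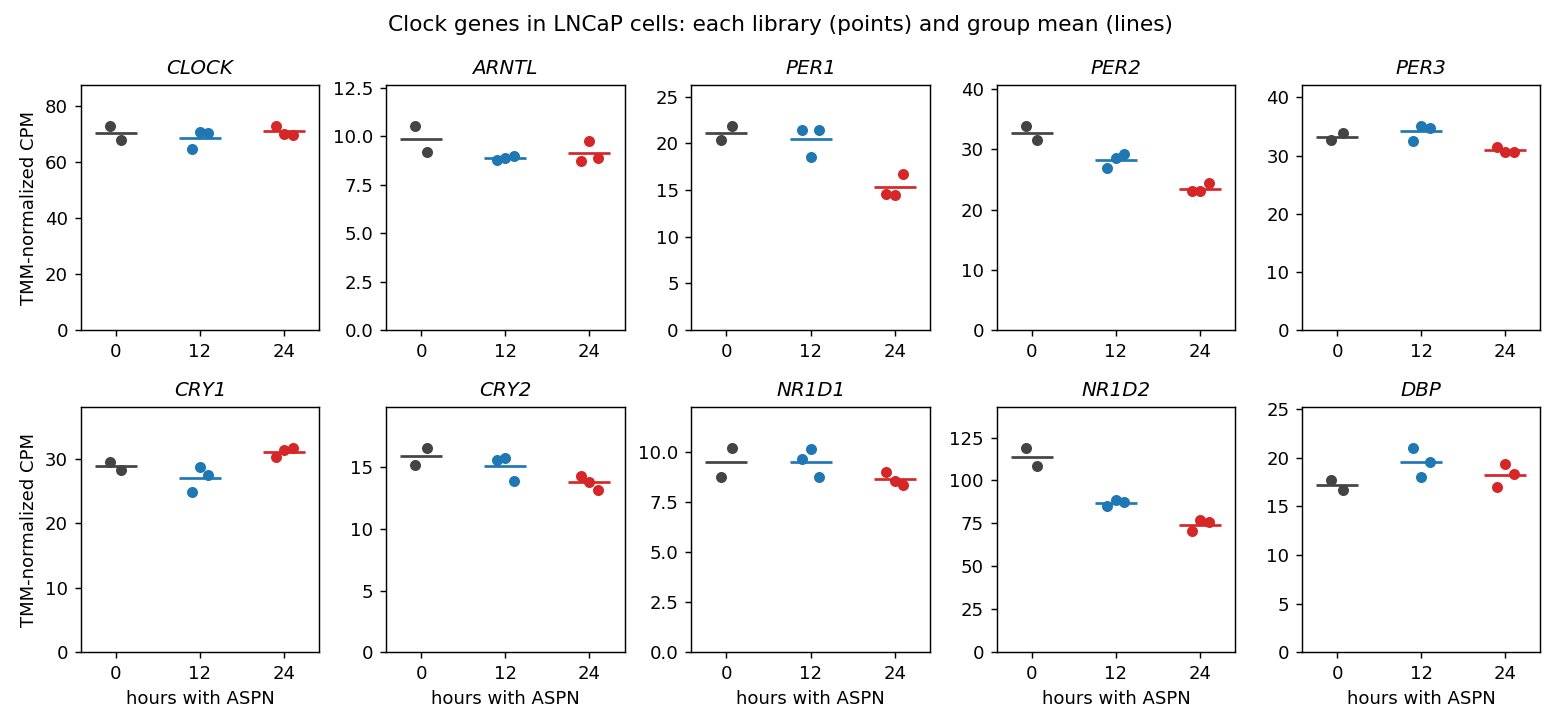
TMM-normalized CPM (y axis, from 0, with its own scale in each panel) of the 10 clock genes against hours with ASPN (x axis). Points are libraries and lines are group means; in the NR1D2 panel the 0 h libraries sit at 108.5 and 119 CPM and the 24 h libraries between 70.7 and 76.8 CPM, while the CLOCK libraries stay between 64.9 and 73.1 CPM at all times.

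NR1D2 (ENSG00000174738.13, GRCh38 chromosome 3, 23945286 to 23980617), PER1 (ENSG00000179094.16, chromosome 17, 8140472 to 8156506) and PER2 (ENSG00000132326.12, chromosome 2, 238244044 to 238290102) were the genes that fell. A promoter of each is shown, since clock factors are known to bind short promoter elements; whether they had a part in these changes was not tested. The sequences are the RefSeq promoters (GRCh38.p14), each the 250 bases before a transcription start and the 50 bases from it, 5′ to 3′ on the strand of the gene. For NR1D2 this is the window at chr3:23945871-23946170 (plus strand), the one of its pair of RefSeq starts that holds clock elements. For PER1 it is chr17:8152355-8152654 and for PER2 chr2:238288561-238288860 (both minus strand). Capitals mark the E-box CACGTG, the D-box TTATGTAA or TTACGTAA, and the D-box variant TTATGCAA, on either strand.
NR1D2: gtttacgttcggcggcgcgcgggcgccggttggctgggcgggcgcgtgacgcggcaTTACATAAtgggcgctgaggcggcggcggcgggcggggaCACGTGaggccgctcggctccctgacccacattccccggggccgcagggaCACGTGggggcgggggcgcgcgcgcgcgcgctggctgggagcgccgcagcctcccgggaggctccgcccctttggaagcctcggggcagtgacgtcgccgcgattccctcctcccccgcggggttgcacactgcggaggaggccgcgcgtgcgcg
PER1: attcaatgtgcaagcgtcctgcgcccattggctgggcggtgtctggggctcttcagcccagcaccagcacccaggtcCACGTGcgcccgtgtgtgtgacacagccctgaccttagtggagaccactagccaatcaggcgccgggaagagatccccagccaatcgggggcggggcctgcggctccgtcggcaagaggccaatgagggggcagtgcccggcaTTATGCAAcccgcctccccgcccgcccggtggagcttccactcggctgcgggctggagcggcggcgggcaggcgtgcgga
PER2: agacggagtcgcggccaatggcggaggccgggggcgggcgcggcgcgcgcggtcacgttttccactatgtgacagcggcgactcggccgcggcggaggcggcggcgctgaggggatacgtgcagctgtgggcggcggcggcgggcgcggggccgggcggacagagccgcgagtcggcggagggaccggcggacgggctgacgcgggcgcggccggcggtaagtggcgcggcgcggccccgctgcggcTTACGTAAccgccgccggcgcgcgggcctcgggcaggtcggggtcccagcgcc

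The NR1D2 window held 2 E-boxes and 1 D-box, which reads TTACATAA on this strand. The PER1 window held 1 E-box and 1 D-box variant, and the PER2 window held 1 D-box and no CACGTG. Among the 10 clock genes, 2 had a CACGTG in a RefSeq promoter window (PER1 and NR1D2) and 3 had a D-box (PER2, PER3 and NR1D2). A gene was counted if any of its windows matched (15 windows for the 10 genes), while the shares over all windows are per window. PER3, whose expression did not pass in any comparison, held its D-box in 1 of its 2 windows. Of 35116 RefSeq promoter windows of the same length, 7.26% held CACGTG, 1.01% held TTATGTAA or TTACGTAA, and 0.846% held TTATGCAA. The sequence TAGGTCA, the core of the element that NR1D and ROR receptors bind, was present in a window of ARNTL and of CRY2 and in 1.85% of all windows. The spellings were chosen after the windows had been read, and no other spelling of an element was searched. A match is no proof of binding, and an absent match concerns these spellings and windows only.

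Neither activator of the loop passed in any comparison. CLOCK (ENSG00000134852.15, chromosome 4, 55427903 to 55546909), the DNA-binding partner that is usually held to vary little over the day, was at 73.1 and 67.9 CPM at 0 h. It was at 64.9, 70.7 and 70.4 CPM at 12 h and at 73.1, 70.3 and 69.8 CPM at 24 h. The 3 groups overlapped throughout. Its log2 change was -0.04 at 12 h (SE 0.052, 95% interval -0.15 to 0.07) and 0.01 at 24 h (SE 0.052, -0.10 to 0.12), with FDR values of 0.734 and 0.932 by edgeR.

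ARNTL (ENSG00000133794.20, chromosome 11, 13276652 to 13387266), the other subunit of the dimer and the target of NR1D repression, was at 10.5 and 9.19 CPM at 0 h. It was at 8.75, 8.85 and 8.97 CPM at 12 h and at 8.73, 9.77 and 8.89 CPM at 24 h. All 12 h libraries lay below both 0 h libraries, by little, and the 24 h libraries overlapped them. The log2 changes of -0.16 at 12 h (SE 0.092, 95% interval -0.35 to 0.03, FDR 0.323 by edgeR) and -0.11 at 24 h (SE 0.092, -0.30 to 0.08, FDR 0.486) did not pass. Of the exon bases of ARNTL, 6.07% lie opposite a noncoding gene.

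The PER genes encode the inhibitory subunits whose transcripts can respond quickly to outside signals. PER1 was at 20.4 and 21.9 CPM at 0 h and at 21.5, 18.5 and 21.4 CPM at 12 h, so these groups overlapped. At 24 h it was at 14.6, 14.5 and 16.7 CPM, below every earlier library. Its log2 change was -0.05 at 12 h (SE 0.078, 95% interval -0.21 to 0.11, FDR 0.788 by edgeR). At 24 h it was -0.47 against 0 h (SE 0.078, FDR 4.12e-05) and -0.42 against 12 h (SE 0.071, FDR 0.000493). PER1 thus fell by 27.8% over 24 h and fell by 25.4% in the later 12 h.

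PER2 fell in both intervals. It was at 33.9 and 31.5 CPM at 0 h, at 26.9, 28.5 and 29.2 CPM at 12 h, and at 23.0, 23.1 and 24.3 CPM at 24 h. The 3 groups did not overlap. Its log2 change was -0.21 at 12 h (SE 0.063, FDR 0.0226 by edgeR), -0.48 at 24 h (SE 0.063, FDR 1e-06) and -0.27 between 12 h and 24 h (SE 0.057, FDR 0.0061). The 12 h call was lost without 0 h replicate 1 (FDR 0.354), without 12 h replicate 1 (0.0852) and when 24 h libraries were not fitted (0.0576), within 0.0176 to 0.354 over all alternatives. The call between 12 h and 24 h was lost without 12 h replicate 3 (0.0584), and also without replicate 1 (0.0586) or replicate 2 (0.0516) of 24 h, within 0.000712 to 0.0586, whereas the call between 24 h and 0 h passed under all 15 alternatives.

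PER3 (ENSG00000049246.15, chromosome 1, 7784291 to 7845177) did not pass. It was at 32.7 and 33.8 CPM at 0 h, at 32.6, 35.1 and 34.8 CPM at 12 h, and at 31.6, 30.6 and 30.6 CPM at 24 h. The 24 h libraries lay below all others, by a small margin. The log2 changes were 0.04 at 12 h (SE 0.059, FDR 0.75 by edgeR), -0.10 at 24 h (SE 0.059, FDR 0.263) and -0.15 between 12 h and 24 h (SE 0.053, 95% interval -0.25 to -0.04, FDR 0.155, within 0.0603 to 0.412 over all alternatives). PER3 shares 10.7% of its exon bases with UTS2 on the other strand, which had 13 counts in all 8 libraries together.

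CRY1 and CRY2 encode the other inhibitory subunits, which repress the CLOCK dimer together with PER proteins. CRY1 (ENSG00000008405.12, chromosome 12, 106991364 to 107093549) was at 29.5 and 28.2 CPM at 0 h, at 24.9, 28.7 and 27.5 CPM at 12 h, and at 30.3, 31.4 and 31.7 CPM at 24 h. The 24 h libraries were above all others. Its log2 change between 12 h and 24 h was 0.20 (SE 0.058, 95% interval 0.08 to 0.32), at an FDR of 0.0511 by edgeR. It passed under 7 of 16 alternatives, within 0.0188 to 0.247, and its place at the threshold is therefore not settled. Against 0 h the log2 changes were -0.09 at 12 h (SE 0.065, FDR 0.414) and 0.11 at 24 h (SE 0.065, FDR 0.3).

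CRY2 (ENSG00000121671.12, chromosome 11, 45847118 to 45883248) was at 15.2 and 16.6 CPM at 0 h, at 15.6, 15.8 and 13.9 CPM at 12 h, and at 14.3, 13.8 and 13.2 CPM at 24 h. All 24 h libraries lay below both 0 h libraries. The log2 change of -0.20 at 24 h (SE 0.079, 95% interval -0.36 to -0.04) had an FDR of 0.0792 by edgeR and did not pass under any of 15 alternatives (0.0587 to 0.422).

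Of the nuclear receptors, NR1D2 passed in all 3 comparisons and NR1D1 in none. NR1D2 was at 119 and 108.5 CPM at 0 h, at 84.9, 88.7 and 87.5 CPM at 12 h, and at 70.7, 76.8 and 75.6 CPM at 24 h. The 3 groups did not overlap. Its log2 change was -0.39 at 12 h (SE 0.051, FDR 3.11e-06 by edgeR) and -0.61 at 24 h (SE 0.051, 95% interval -0.72 to -0.51, FDR 1.85e-10), and both passed under all 15 alternatives. It fell by 23.5% in the first 12 h and fell by 34.6% over 24 h. At 1.53-fold, it was the only clock gene past the 1.5-fold threshold that the study used, in the comparison of 24 h with 0 h, where 2.45% of all genes tested passed both thresholds. At 12 h no clock gene did, where 1.05% of all genes tested passed both, nor between 12 h and 24 h, where 0.18% did. Without 0 h replicate 1 or 24 h replicate 1 no clock gene passed both. Between 12 h and 24 h its log2 change was -0.23 (SE 0.046, FDR 0.00365), and leaving out 24 h replicate 1 ended this call (0.0703), the range over all alternatives being 0.000158 to 0.0703.

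NR1D1 (ENSG00000126368.6, chromosome 17, 40092793 to 40100589) was at 8.79 and 10.2 CPM at 0 h, at 9.66, 10.2 and 8.80 CPM at 12 h, and at 9.02, 8.57 and 8.39 CPM at 24 h. The 12 h libraries lay between the 0 h libraries, and 2 of the 3 libraries at 24 h lay below both. The log2 changes were 0.01 at 12 h (SE 0.095, 95% interval -0.19 to 0.20, FDR 0.98 by edgeR) and -0.13 at 24 h (SE 0.095, -0.33 to 0.06, FDR 0.412). NR1D1 shares 473 exon bases, 18% of its own, with THRA on the other strand. THRA had 43231 counts over the 8 libraries and NR1D1 had 6202, so the value of NR1D1 is uncertain if the counting ignored strand.

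DBP (ENSG00000105516.11, chromosome 19, 48630030 to 48637379), the output factor, was at 17.7 and 16.6 CPM at 0 h, at 21.0, 18.0 and 19.5 CPM at 12 h, and at 17.0, 19.3 and 18.3 CPM at 24 h. The 12 h libraries lay above both 0 h libraries. The log2 change of 0.18 at 12 h (SE 0.077, 95% interval 0.03 to 0.34) had an FDR of 0.134 by edgeR, within 0.0471 to 0.37 over 15 alternatives, and at 24 h it was 0.08 (SE 0.077, FDR 0.542). DBP shares 10.2% of its exon bases with SPHK2 on the other strand, a gene with 18012 counts against 12455 for DBP.

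**Figure D2:**
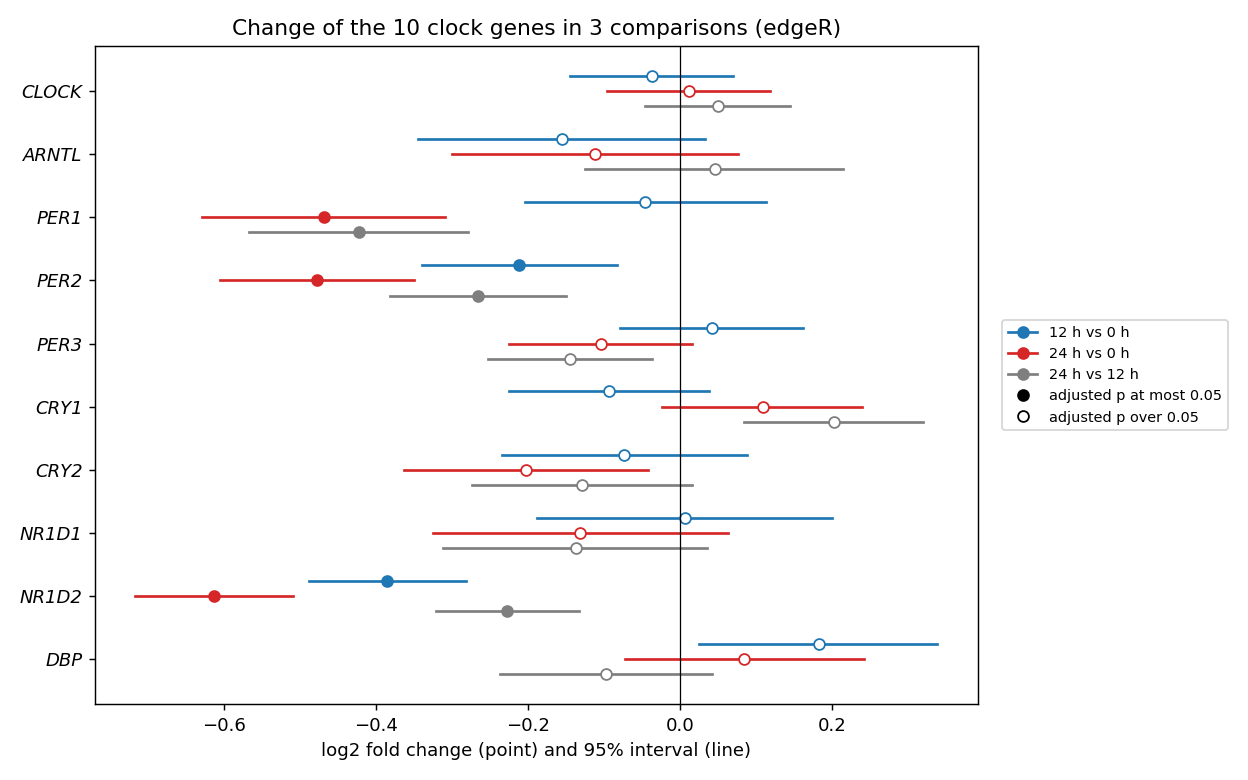
Log2 fold change (point) with its 95% interval (line) for the 10 clock genes in 3 comparisons, from edgeR; filled points have an FDR (adjusted p) of at most 0.05. The filled points are NR1D2 and PER2 in all 3 comparisons and PER1 in both comparisons that involve 24 h, all left of 0, with NR1D2 lowest at -0.61.

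A test for any difference between the 3 times passed for 4 of the 10 genes, where 16.4% of all genes tested and 24.7% of well-counted genes passed. They were NR1D2 (FDR 9.18e-10 by edgeR), PER2 (4.03e-06), PER1 (2.11e-05) and CRY1 (0.0374). Counts of clock genes without overlap between the compared groups were 4 of 10 at 12 h, 6 of 10 at 24 h and 5 of 10 between 12 h and 24 h. Over all genes tested these shares were 36.9%, 43.2% and 19.6%.

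Within a library the ratio of a pair of related genes does not depend on how libraries are scaled. All 5 pairs among the PER, CRY and NR1D genes were therefore compared across the 3 times, by an exact permutation test. It asked for any difference between the times, without a direction, over the 560 arrangements of the libraries (smallest possible p 0.00357). This choice was made after the values of single genes had been seen. The ratio of PER2 to PER3 counts was 1.04 and 0.931 at 0 h, 0.826, 0.812 and 0.839 at 12 h, and 0.730, 0.754 and 0.797 at 24 h. The groups did not overlap, and the exact p was 0.00357 (0.0178 adjusted over the 5 ratios), or 0.00952 to 0.019 with single libraries left out. The test carries no direction, and by the ratios themselves PER2 fell relative to PER3. The ratio of NR1D2 to NR1D1 was 12.1 ± 2.1 at 0 h (SD, n = 2), 9.16 ± 0.69 at 12 h and 8.60 ± 0.67 at 24 h (SD, n = 3 each). Its exact permutation p of 0.0214 was 0.0535 after adjustment and 0.0571 to 0.171 with single libraries left out, so a difference between these paralogs was not established here.

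The ratio of PER1 to PER3 went from 0.636 ± 0.016 at 0 h (SD, n = 2) to 0.6 ± 0.067 at 12 h and 0.495 ± 0.046 at 24 h (SD, n = 3 each; exact permutation p 0.1, adjusted 0.125). That of CRY1 to CRY2 went from 1.83 ± 0.17 to 1.80 ± 0.20 and 2.27 ± 0.15 (exact permutation p 0.0821, adjusted 0.125). That of PER1 to PER2 was 0.649 ± 0.065, 0.727 ± 0.075 and 0.650 ± 0.032 (exact permutation p 0.314, adjusted 0.314). None of these 3 passed.

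**Figure D3:**
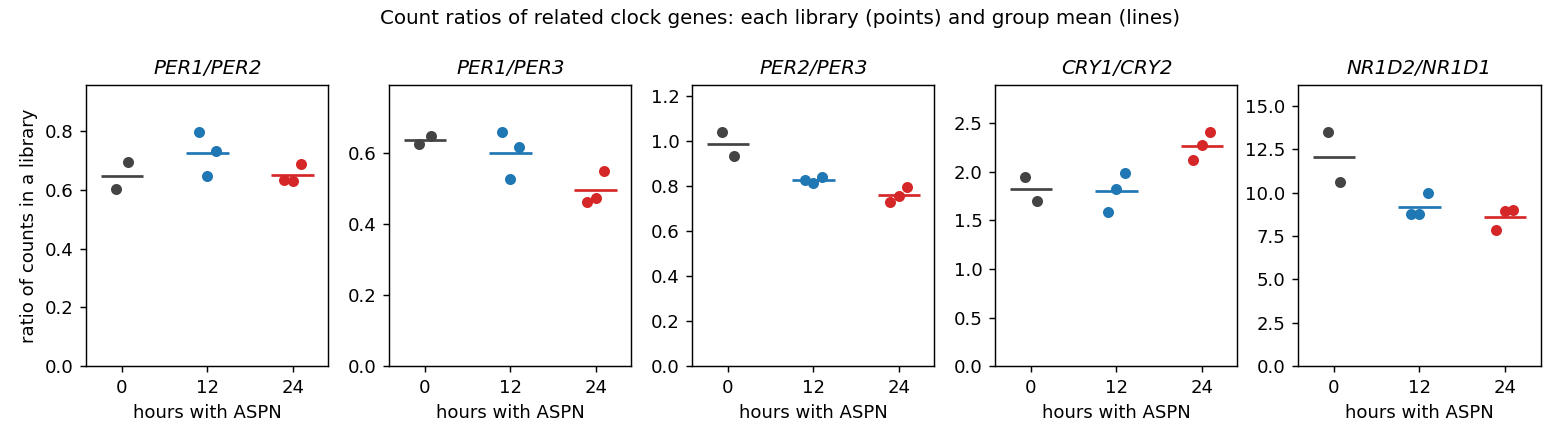
Ratio of the counts of 2 related clock genes within each library (y axis, from 0, no unit) against hours with ASPN (x axis). Points are libraries and lines are group means; the PER2/PER3 libraries step down without overlap, from 0.931 or more at 0 h to 0.797 or less at 24 h, and the CRY1/CRY2 group means are 1.83, 1.80 and 2.27.

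Levels of different genes were compared per length, in RPKM (CPM divided by the annotated exon length in kilobases). This length merges the exons of all annotated transcripts of a gene. It can exceed the length of the transcripts that the cells made, so the order below depends on the annotation. NR1D2 was the most abundant clock gene, with a mean of 15.4 RPKM over the 8 libraries (12.2 to 20.5), higher than 86.8% of the genes tested. CLOCK and CRY1 followed at 6.07 RPKM each, and their ranges overlapped (5.63 to 6.34 and 5.20 to 6.63). PER3 (4.02), PER2 (3.89), NR1D1 (3.50), DBP (2.84), PER1 (2.67) and CRY2 (2.38) came next, and each overlapped its neighbour in this order. These means pool the 3 times, and the order of the group means turned with time. PER2 was at 4.61 RPKM and PER3 at 4.09 RPKM at 0 h, and they were at 3.31 and 3.80 RPKM at 24 h. PER1 was at 3.02 RPKM and DBP at 2.65 RPKM at 0 h, and they were at 2.18 and 2.81 RPKM at 24 h. ARNTL was lowest at 1.33 RPKM (1.26 to 1.52), below every library of every other clock gene. In every library CLOCK was therefore more abundant per length than its partner ARNTL.

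The gene patterns most like that of NR1D2, the clock gene with the smallest p over the 3 times, were sought among 12620 well-counted genes outside the clock lists. The closest were SELENOK (Pearson r 0.998 of log2 CPM over the 8 libraries), MON1B (0.998), ZW10 (0.997), CRLF3 (0.997) and WARS1 (0.996). Their log2 changes at 12 h and 24 h were -0.40 and -0.64 for SELENOK, a selenoprotein of the endoplasmic reticulum, and -0.48 and -0.75 for WARS1, the cytosolic tryptophanyl-tRNA synthetase. Such likeness was common, since 282 of the 12620 genes had an r above 0.95 with NR1D2. The 8 points share 3 times, so these values are a description. Among the clock genes, PER2 was most like NR1D2 (r 0.96) and PER1 next (0.735).

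Other genes of the clock pathway were taken from 3 lists. The list of other clock transcription factors held 11 genes, all tested, of which 3 passed at 12 h (2 higher, 1 lower), 6 at 24 h (2 higher, 4 lower) and 2 between 12 h and 24 h (both lower). Over all genes tested the shares were 11.6%, 16.3% and 2.72%, and over well-counted genes 17.5%, 24% and 4.16%. Its median log2 changes were -0.01, -0.13 and -0.06. HLF and TEF belong with DBP to the PAR bZIP family, which activates genes through the D-box, and at 24 h HLF was higher and TEF lower than at 0 h. HLF was at 4.97 and 3.91 CPM at 0 h, at 7.20 to 8.40 CPM at 12 h and at 8.67 to 9.88 CPM at 24 h. It rose by 0.84 at 12 h (SE 0.12, FDR 5.8e-06 by edgeR) and by 1.03 at 24 h (SE 0.11, FDR 5.95e-08) on the log2 scale, without overlap with 0 h. TEF was at 36.5 and 38.2 CPM at 0 h, at 34.1 to 36.1 CPM at 12 h and at 27.6 to 29.6 CPM at 24 h. Its log2 change was -0.09 at 12 h (SE 0.058, FDR 0.404) and -0.38 at 24 h (SE 0.059, FDR 1.25e-05).

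NFIL3, the repressor that competes with these factors for the D-box, was lower at both times. It was at 26.1 and 22.1 CPM at 0 h, at 16.2 to 18.5 CPM at 12 h and at 16.0 to 17.8 CPM at 24 h, with log2 changes of -0.46 (SE 0.077, FDR 9.04e-05 by edgeR) and -0.52 (SE 0.077, FDR 6.76e-06). BHLHE40, which represses E-box genes, was at 103 ± 6.78, 112 ± 8.65 and 87.6 ± 5.24 CPM at the 3 times (mean ± SD of 2, 3 and 3 libraries). It fell between 12 h and 24 h by a log2 change of -0.36 (SE 0.052, FDR 9.34e-05). Its change from 0 h to 24 h of -0.23 (FDR 0.00458) ended on leaving out 0 h replicate 1 (0.173), the range over all alternatives being 0.000239 to 0.173. NPAS2, a paralog of CLOCK, was scarce at 2.32 ± 0.407 CPM at 0 h (SD, n = 2) and rose by 0.53 at 12 h (SE 0.15, FDR 0.0202) and 0.47 at 24 h (SE 0.15, FDR 0.0327). Its 12 h call was lost without the 0 h library that has no replicate number (0.202) and without 12 h replicate 3 (0.0557), within 0.012 to 0.202. Its 24 h call was lost without that 0 h library (0.297) or any single 24 h library (0.0515 to 0.103). RORB, an activating receptor for the element that NR1D proteins bind, lies outside the naming rule and was picked after its values were seen. It had 46 and 58 counts at 0 h and 14 to 30 at 24 h, a log2 change of -1.37 (SE 0.4, FDR 0.0157) that was lost without either 0 h library (0.127 and 0.0573) or without 24 h replicate 1 (0.0868), within 0.0096 to 0.127, and DESeq2 gave it no adjusted value.

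**Figure D4:**
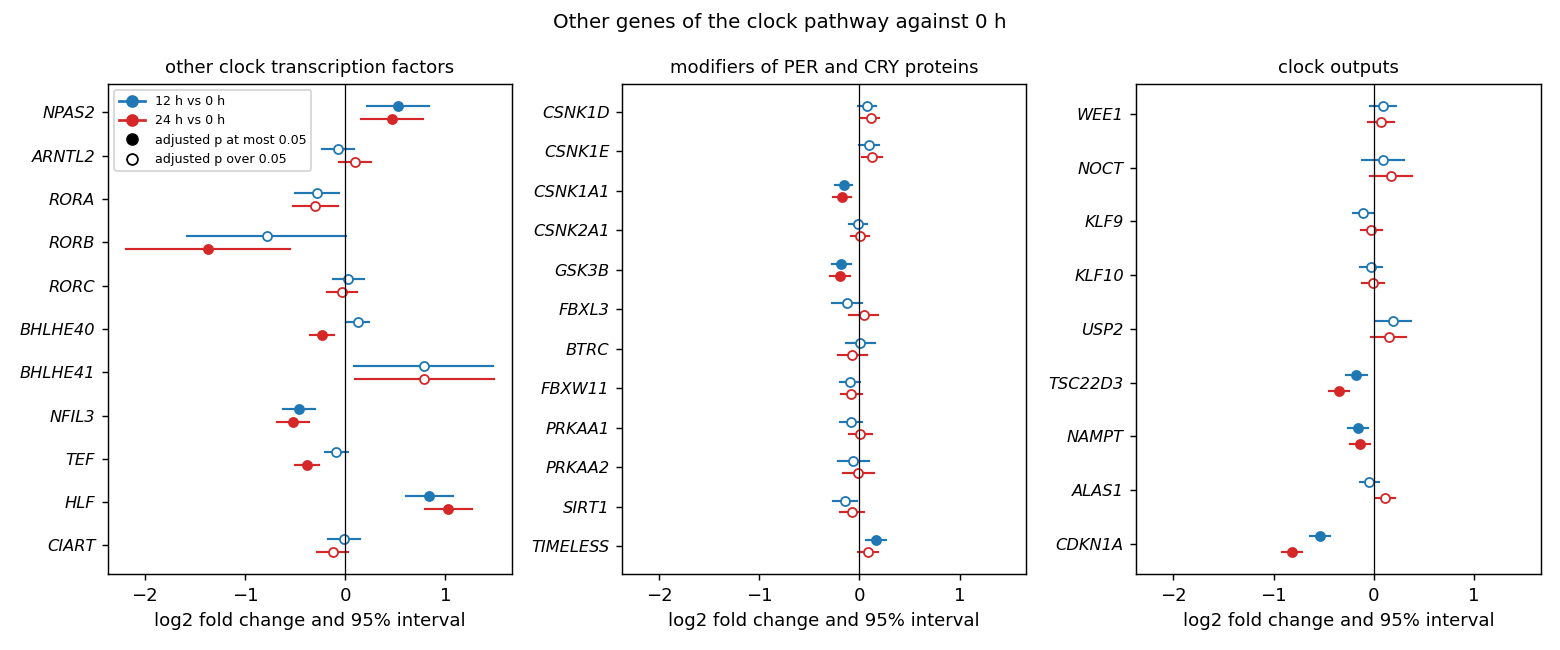
Log2 fold change against 0 h (point) with its 95% interval (line) for the tested genes of 3 lists, at 12 h and 24 h; filled points have an FDR (adjusted p) of at most 0.05 by edgeR. HLF lies farthest to the right of the filled points at 1.03 for 24 h, RORB farthest to the left at -1.37 with a wide interval, and the points of the kinases, ligases and partners stay close to 0.

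The list of kinases, ubiquitin ligases and partners that act on PER and CRY proteins held 13 genes. FBXL21P was not listed in the table, and of the 12 tested, 3 passed at 12 h (1 higher, 2 lower), 2 at 24 h (both lower) and 0 between 12 h and 24 h by edgeR. These are 25%, 16.7% and 0%, against 11.6%, 16.3% and 2.72% of all genes tested and 17.5%, 24% and 4.16% of well-counted genes, so at 24 h the list was near the share of all genes. The changes were small, with a median absolute log2 change of 0.09 at 12 h and 0.08 at 24 h. GSK3B, a kinase that phosphorylates several clock proteins, had log2 changes of -0.18 at 12 h (SE 0.048, FDR 0.0109) and -0.19 at 24 h (SE 0.048, FDR 0.0041). CSNK1A1, a casein kinase, had -0.16 (SE 0.043, FDR 0.0136) and -0.17 (SE 0.043, FDR 0.00441). Without 0 h replicate 1 the FDR values of GSK3B were 0.253 and 0.107 and those of CSNK1A1 0.312 and 0.129. Both 12 h calls were also lost when 24 h libraries were not fitted (0.0503 and 0.0655), within 0.00478 to 0.253 and 0.00167 to 0.312. Of the exon bases of CSNK1A1, 49.3% also belong to a noncoding gene on the same strand, so its counts are uncertain. TIMELESS, a replication fork protein also linked to the clock, rose by 0.16 at 12 h (SE 0.05, FDR 0.029), a call that ended on leaving out 0 h replicate 1 (0.268), 12 h replicate 2 (0.0765), or replicate 3 of that time (0.0668), and when 24 h libraries were not fitted (0.0842), within 0.00695 to 0.268.

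The list of genes often described as clock outputs held 10 genes, of which 9 were tested and PPP1R3C, with 13 counts in all, was not. Of the 9, 3 passed at 12 h and 3 at 24 h, all lower, and 3 between 12 h and 24 h (1 higher, 2 lower). The shares were 11.6%, 16.3% and 2.72% over all genes tested and 17.5%, 24% and 4.16% over well-counted genes. CDKN1A, the p21 cell cycle inhibitor, which NR1D1 is known to repress, went from 302.5 and 301.8 CPM at 0 h to 191 to 220 CPM at 12 h and 170.5 to 175 CPM at 24 h. Its log2 changes were -0.54 (SE 0.048, FDR 1.06e-08 by edgeR) and -0.81 (SE 0.048, FDR 1.85e-13), and between 12 h and 24 h the change was -0.27 (SE 0.044, FDR 0.000302). TSC22D3, a glucocorticoid-induced gene, had a log2 change of -0.35 at 24 h (SE 0.05, FDR 4.8e-06) and of -0.17 at 12 h (FDR 0.0188), a 12 h call lost without 0 h replicate 1 (0.544) or 12 h replicate 3 (0.105) and when 24 h libraries were not fitted (0.0641), within 0.00256 to 0.544. Its change of -0.17 between 12 h and 24 h (FDR 0.0306) was kept under 12 of 16 alternatives and was lost without 12 h replicate 1 (0.0642) and on leaving out each 24 h library (0.0519 to 0.214). NAMPT, the rate-limiting enzyme of NAD salvage, had -0.16 at 12 h (FDR 0.0282) and -0.14 at 24 h (FDR 0.0479). Without 0 h replicate 1 these values were 0.589 and 0.631, and of 15 alternatives 10 kept the 12 h call and 7 the 24 h call. ALAS1, the first enzyme of heme synthesis, rose by 0.16 on the log2 scale from 12 h to 24 h (SE 0.041, FDR 0.0271). Leaving out 12 h replicate 1 (0.0519), 12 h replicate 3 (0.132) or each 24 h library in turn (0.105 to 0.19) ended that call, within 0.00239 to 0.19. WEE1, NOCT, KLF9, KLF10 and USP2 did not pass in any comparison.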

How the data were processed

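RNA from 8 LNCaP libraries was sequenced. The authors deposited unnormalized read counts for each gene, for which they trimmed adapters with Cutadapt, aligned reads to GRCh38 with STAR and counted with featureCounts against a GENCODE annotation. A library from time 0 was dropped by the authors because of its quality. Strand and multi-mapping options were not given in the sources used here. Column names gave the time of each library. For 0 h, a column numbered 3 matches no label of that group by number and entered the group unnumbered. The labels call replicates biological, and separate cultures beyond wells are not described, so p-values measure the spread between these libraries. Pairs within a group differed by a chi-square per degree of freedom of 5.32 or more, so none was merged with another.

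Testing used edgeR 4.0.16 (R 4.3.3; glmQLFit robust, glmQLFTest, TMM, filterByExpr) with 1 coefficient per time over all 8 libraries, and p-values were adjusted over 21071 genes. CPM use effective library sizes. RPKM use exon lengths of GENCODE 44, whose coordinates equalled those of the file for 30996 of 30996 genes with the same versioned identifier; the PER2 identifier differs in version only. A count of 0 allows up to 0.031 to 0.0413 CPM (3 counts). The procedure was tested on simulated counts with known changes.

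The clock genes and lists were chosen with earlier results of these data known. The naming rule takes all 10 clock genes and up to 4 passing genes per list and comparison. Alternatives comprised RLE and upper-quartile normalization, other low-count filters, DESeq2 1.42.0, fits to compared times alone, thinned counts, a replicate block and leaving out each library. No column of values was left unused.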

Additional observations from a re-analysis of the deposited data

Results flagged for a closer look

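The change from 0 h differed between 12 h and 24 h for 3 of the 10 clock genes, tested as the difference between those times by edgeR over all genes, of which 2.72% passed (4.16% of well-counted genes). The change of PER1 was lower at 24 h by a log2 value of -0.42 (adjusted p 0.000493), that of PER2 by -0.27 (adjusted p 0.0061) and that of NR1D2 by -0.23 (adjusted p 0.00365). Every 24 h library lay below every 12 h library for each of these 3 genes. The PER2 call was lost without 12 h replicate 3 (adjusted p 0.0584), without 24 h replicate 1 (0.0586) and without 24 h replicate 2 (0.0516), and the NR1D2 call without 24 h replicate 1 (0.0703), where only PER1 passed. Which part of these later decreases belongs to ASPN and which to time in culture cannot be told apart.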

How the results depend on the processing

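For the 10 clock genes, 445 of 460 values under alternatives kept their side of the threshold, 7 lost it, 8 gained it and 0 reversed a call. For the other pathway genes these counts were 1406, 46, 14 and 0 of 1466. Clock genes that passed numbered 1 to 3 at 12 h (1 in the fit to the compared times alone), 3 at 24 h and 1 to 4 between 12 h and 24 h when single libraries were left out, and those also changed 1.5-fold at 24 h numbered 0 to 1. The any-time test passed for 3 to 4. Over all genes, leaving out single libraries gave 624 to 2761 passing genes at 12 h, 1597 to 4047 at 24 h, 222 to 730 between 12 h and 24 h and 1678 to 4012 for any time. The lowest counts against 0 h and for any time came without 0 h replicate 1. Between 12 h and 24 h, 257 genes passed without 12 h replicate 3, and 231, 222 and 273 without 24 h replicates 1, 2 and 3. Genes also past 1.5-fold numbered 78 to 300, 265 to 567 and 16 to 46. They numbered 140 at 12 h and 322 at 24 h when only genes averaging 100 or more normalized counts were kept, where fewer genes are tested. Other causes were not tested.

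With the replicate number as a block, 865 genes passed between 12 h and 24 h instead of 574. CRY1 then passed (adjusted p 0.0237). Deviations of same-numbered libraries correlated at 0.119, 0.03 and 0.029, and those of differently numbered libraries at -0.101 to 0.073. Not every library correlated best with its own number. These low values do not settle whether the numbers pair the libraries. No paired analysis was run for comparisons with 0 h because only 1 of its 2 columns has a number that the labels of that group give. The median log2 change of all genes stayed between -0.004 and 0.013 under 3 normalizations. Each of them scales the libraries towards little change in most genes, so a small median is built in and is no sign of stability.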
